A study of Mus musculus with 4 samples.

Results

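The genes described here are 9 receptors that tune T cell activation, together with Gm16008, an antisense row that lies opposite 1 of them. They were taken by symbol: the tumour necrosis factor (TNF) receptor family members Tnfrsf4 (OX40), Tnfrsf9 (4-1BB) and Tnfrsf18 (GITR), the costimulatory receptors Icos and Cd28, and the inhibitory receptors Ctla4, Pdcd1 (PD-1), Tigit and Btla. All 10 were found among the 50600 gene rows of the count tables. The 4 libraries form 1 group, biological replicates 1 to 4 of primary mouse T helper 2 (Th2) cells of strain C57BL/6NJ, differentiated from CD4 T cells. The count headers place the samples at 48 hours in a time course of Th1 and Th2 cells, and the labels list no genotype change, leave age and developmental stage unknown and sex not collected. The labels give 1 donor identifier and 4 separate biosamples, so p-values measure the spread between these samples, part of which may be technical. The assay is labelled total RNA, whereas the linked library protocol is for polyadenylated RNA. With no naive, Th1 or unstimulated group among these libraries, levels were compared within and between the 4 libraries only.

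A T cell needs a signal from its antigen receptor and a costimulatory signal to become fully activated. CD28 gives the costimulatory signal on resting cells by binding CD80 and CD86, while ICOS, OX40, 4-1BB and GITR are induced or raised after activation and sustain survival and cytokine production. CTLA-4 competes with CD28 for its ligands, and PD-1, TIGIT and BTLA recruit phosphatases or otherwise dampen the same signalling. OX40 and ICOS are known for their support of Th2 responses.

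Library totals were 2271993, 2112190, 2204423 and 1785970 counts in replicates 1 to 4. A row with no counts in a library allows up to 3 counts, which is 1.32 to 1.68 CPM (counts scaled to the same library total). Rows whose exons share no base with a gene on the other strand held only 7.53%, 6.88%, 5.48% and 6.67% of the counts, and the 2 ribosomal RNA rows held 3.25% to 15.9%, with the highest share in replicate 4. Because 8189 of the rows do share exon bases with the other strand, each level below is the count assigned to the named row. Which strand's transcripts gave it was not tested.

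Of the 9 receptors, Tnfrsf18 is the 1 whose exons share bases with a gene on the other strand. Its row lies on the plus strand at chr4:156026164-156028895 (mm10) and Gm16008 (ENSMUSG00000087381.8), annotated as antisense RNA, lies on the minus strand at chr4:156022008-156031643. The exons of these rows share 414 bases, in stretches of 334 bp and 80 bp. That is 27.2% of the exon bases of Tnfrsf18 and 31.3% of those of Gm16008. The other 910 exon bases of Gm16008 (68.7%) lie outside the exons of Tnfrsf18, and 5 of its 7 exons share none of them. The sequences printed here show what the rows have in common and what they do not, each written 5′ to 3′ on its own strand from the GENCODE vM21 transcripts (GRCm38, which is mm10), with the ATG start codon in capitals. They are the first coding stretch of Tnfrsf18, which lies inside an exon of Gm16008 (chr4:156026387-156026537, plus strand), a coding stretch near the end of a Tnfrsf18 isoform that also lies inside a Gm16008 exon (chr4:156028495-156028528, plus strand), and an exon of Gm16008 beyond the end of Tnfrsf18 (chr4:156030422-156030516, minus strand).
Tnfrsf18, start of the coding sequence: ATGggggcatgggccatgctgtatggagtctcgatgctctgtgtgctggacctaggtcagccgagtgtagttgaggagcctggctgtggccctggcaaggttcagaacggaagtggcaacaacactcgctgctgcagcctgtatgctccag
Tnfrsf18, late coding stretch: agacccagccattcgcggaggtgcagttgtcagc
Gm16008, exon outside Tnfrsf18: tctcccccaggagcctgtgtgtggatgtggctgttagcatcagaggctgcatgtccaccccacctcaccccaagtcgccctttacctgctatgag

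**Figure D1:**
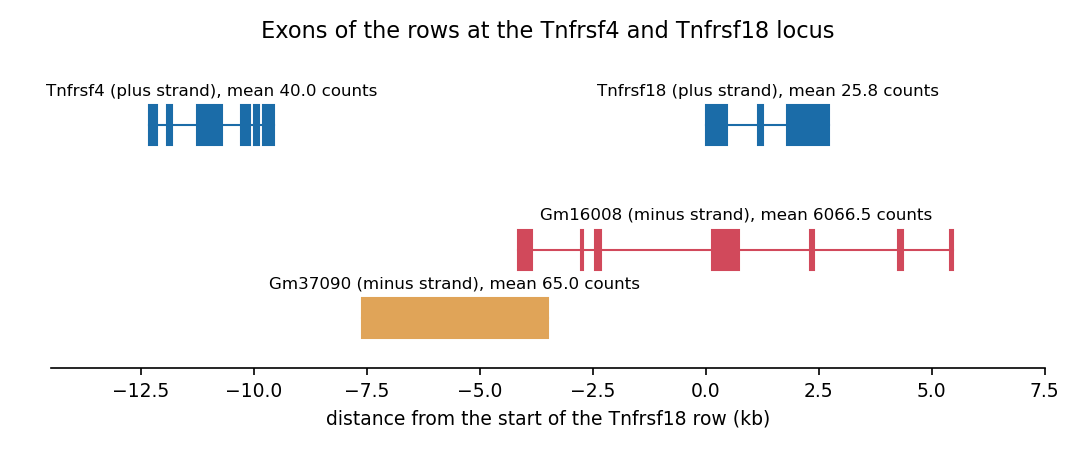
Exons of the rows at the Tnfrsf4 and Tnfrsf18 locus, drawn to scale as distance in kb from the start of the Tnfrsf18 row, with 1 line per row. The 2 stretches in which exons of Tnfrsf18 and Gm16008 share bases add up to 414 bases, and 5 of the 7 Gm16008 exons lie outside them.

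Gm16008 had by far the most counts of the 10 rows. It had 6486, 5955, 6850 and 4975 counts in replicates 1 to 4, or 3237, 3167, 3516 and 3335 TPM (counts divided by exon length and scaled to the same sum in every library). The mean was 3314 ± 152 TPM (SD, n = 4), which ranked 40 of 50600 rows and 20 of 2566 antisense rows. It held 0.285%, 0.282%, 0.311% and 0.279% of all counts in replicates 1 to 4. The 9 receptors together had 247, 229, 146 and 175 counts, so that this single antisense row had 26.3, 26.0, 46.9 and 28.4 times their sum. No library came near equal amounts.

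Tnfrsf18 (ENSMUSG00000041954.18) encodes GITR, which regulatory T cells carry at rest and other T cells gain on activation. Its row had 33, 28, 22 and 20 counts, or 14.3, 12.9, 9.81 and 11.6 TPM, with a mean of 12.2 ± 1.91 (SD, n = 4). The log2 ratio of Gm16008 over Tnfrsf18, from TPM + 1, was 7.72, 7.83, 8.35 and 8.04 in replicates 1 to 4. The mean ratio was 7.99 ± 0.274, positive in 4 of 4 libraries (exact two-sided sign-flip test, p = 0.13, the smallest that 4 libraries allow). In TPM the antisense row was 279-fold ± 58.6 higher, and in counts 242-fold ± 50.9 higher (SD, n = 4). The ranges of the rows lay far apart, and the ratio was largest in replicate 3.

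A ratio in this direction was common in the tables. Among 1611 pairs of a protein-coding row and another row that share exon bases on opposite strands, the other row was higher in every library in 85.6%, and the protein-coding row was higher in every library in 10.7%. The median log2 ratio of these pairs was 5.02. The pair of Gm16008 and Tnfrsf18 ranked 217 by size, above 86.5% of them. Its direction is therefore that of most such pairs, with a ratio in the upper part of their range.

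**Figure D2:**
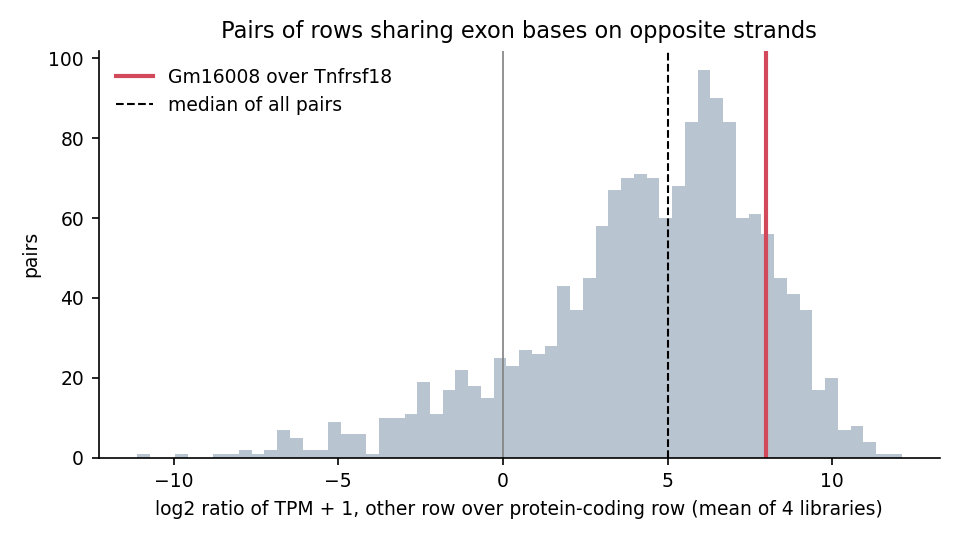
Histogram of the log2 ratio of TPM + 1, other row over protein-coding row, averaged over the 4 libraries, for 1611 pairs that share exon bases on opposite strands. The solid line is the pair of Gm16008 and Tnfrsf18 at 7.99 and the dashed line is the median of all pairs at 5.02.

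Detection among the receptors was broader than in the genome at large. Counting a row as detected at 1 TPM or more in every library, 7 of the 9 receptors and 8 of the 10 rows passed, and Icos and Cd28 did not. Of all protein-coding rows 21.8% passed, of protein-coding rows without an exon on the other strand 14.7%, and of all rows 13.3%. By counts, 8 of the 9 receptors exceeded 3 counts in every library, against 26.5% of protein-coding rows. The median of the receptors was 5.63 TPM, which is close to the median of the detected protein-coding rows, 5.68, and compares with 0.115 over all protein-coding rows. Among rows without an exon on the other strand, the median of the 8 receptors was 4.95 TPM and that of the detected protein-coding rows 4.04. In RNA from bulk cells, fewer cells of a type and less RNA per cell cannot be told apart.

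**Figure D3:**
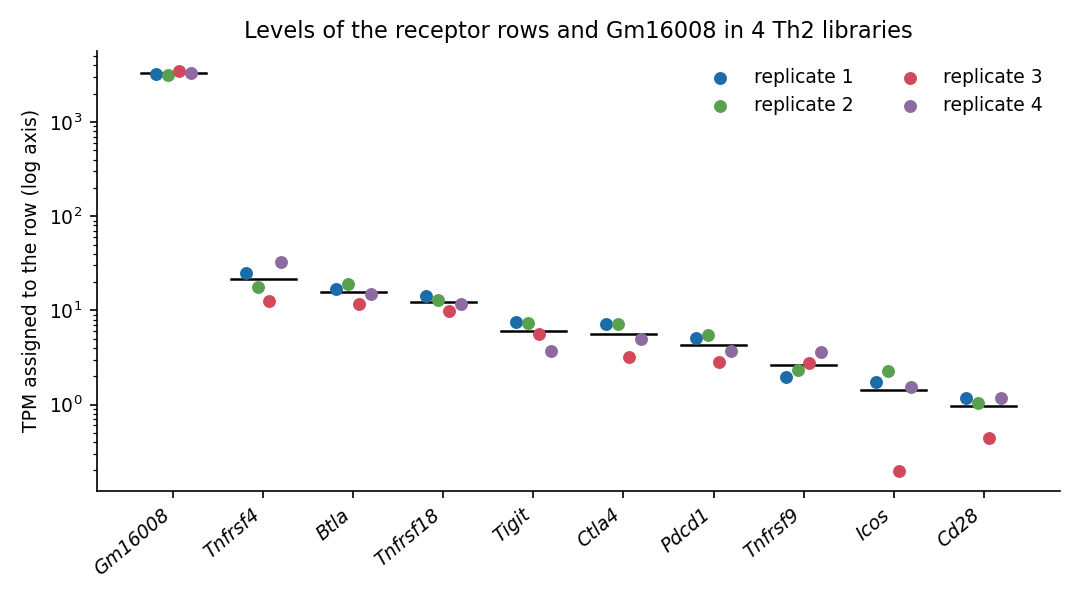
TPM assigned to each of the 10 rows on a log axis, with 1 point per library and a bar at the mean of 4. Gm16008 lies at 3167 TPM or above in every library, while the receptors range from 0.20 TPM (Icos, replicate 3) to 32.5 TPM (Tnfrsf4, replicate 4).

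Among the TNF receptor family, Tnfrsf4 was the highest. Tnfrsf4 (ENSMUSG00000029075.6, chr4:156013843-156016612, plus strand) encodes OX40, which sustains the survival of effector T cells and signals through TRAF adaptors. It had 51, 34, 25 and 50 counts, or 24.7, 17.5, 12.4 and 32.5 TPM, and its mean of 21.8 ± 8.73 (SD, n = 4) was the highest of the 9 receptors. Replicates 1 and 4 were high and replicate 3 was the lowest. Tnfrsf4 ends 9552 bp before Tnfrsf18 starts, on the same strand, and no gene on the other strand shares its exons.

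Tnfrsf9 encodes 4-1BB, which is induced on activated T cells and recruits TRAF adaptors. The row (ENSMUSG00000028965.13, chr4:150914562-150946102, plus strand) had 8, 9, 11 and 11 counts, or 1.94, 2.33, 2.75 and 3.59 TPM. The mean was 2.65 ± 0.705 TPM (SD, n = 4). It was the lowest of the 3 TNF receptors in every library, and the only one of them that was not lowest in replicate 3. Camta1 runs through its gene body on the other strand without sharing an exon base and had 2, 1, 3 and 0 counts.

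The CD28 family costimulators were the lowest of the receptors. Cd28 (ENSMUSG00000026012.2, chr1:60716800-60773359, plus strand) had 11, 9, 4 and 8 counts, or 1.19, 1.04, 0.44 and 1.16 TPM, with a mean of 0.957 ± 0.348 (SD, n = 4). Its exons sum to 6122 bp, the longest of the 10 rows. It passed 1 TPM in 3 of 4 libraries, and replicate 3 kept it from being counted as detected.

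Icos (ENSMUSG00000026009.14, chr1:60977927-61000320, plus strand) encodes an inducible relative of CD28 that promotes help to B cells and cytokine production. It had 9, 11, 1 and 6 counts, or 1.73, 2.26, 0.20 and 1.55 TPM, with a mean of 1.44 ± 0.878 (SD, n = 4). The single count of replicate 3 has an exact 95% Poisson interval of 0.0253 to 5.57 counts, which covers counting error only. In raw counts, not scaled to library totals, it overlaps the intervals of replicate 4 (2.20 to 13.1 counts) and replicate 1 (4.12 to 17.1). The interval of replicate 2, 5.49 to 19.7 counts, meets it only at the edge. Replicate 2 also had the smaller library total, 2112190 against 2204423 counts, so whether these intervals overlap depends on the scaling. In TPM replicate 3 stood at 10.7% of the mean of the other libraries. Without replicate 3, Icos and Cd28 both passed 1 TPM in every library, and all 10 rows were detected.

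Of the inhibitory receptors, Btla stood apart as the highest. Btla (ENSMUSG00000052013.14, chr16:45224315-45252895, plus strand) encodes an inhibitory receptor that binds HVEM, the product of Tnfrsf14. It had 84, 89, 56 and 55 counts, the most of any receptor in every library, or 17.0, 19.2, 11.7 and 15.0 TPM. The mean was 15.7 ± 3.21 TPM (SD, n = 4).

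Tigit (ENSMUSG00000071552.4, chr16:43648861-43664184, minus strand) encodes a receptor that competes with CD226 for the ligand encoded by Pvr. It had 11, 10, 8 and 4 counts, or 7.55, 7.31, 5.65 and 3.69 TPM, and a mean of 6.05 ± 1.79 (SD, n = 4). Replicate 4 was its lowest library. Tigit has the shortest row, 963 bp, so its few counts give more TPM than the same counts would in a longer gene.

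Ctla4 (ENSMUSG00000026011.13, chr1:60887000-60915832, plus strand) lies between Cd28 and Icos. It had 25, 24, 11 and 13 counts, or 7.09, 7.25, 3.21 and 4.95 TPM, with a mean of 5.63 ± 1.92 (SD, n = 4). Pdcd1 (ENSMUSG00000026285.7, chr1:94038305-94052553, minus strand), the gene of PD-1, had 15, 15, 8 and 8 counts, or 5.14, 5.47, 2.82 and 3.68 TPM, with a mean of 4.28 ± 1.25 (SD, n = 4). In both rows the values of replicates 1 and 2 were above those of the other libraries.

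The order of levels by mean TPM was Gm16008, Tnfrsf4, Btla, Tnfrsf18, Tigit, Ctla4, Pdcd1, Tnfrsf9, Icos and Cd28. Neighbours were compared by their difference of log2(TPM + 1) in each library, and called apart if the difference had 1 sign in every library and a mean above its SD. By that rule 4 of 9 neighbouring pairs were apart. Gm16008 was above Tnfrsf4 by 7.27 ± 0.60, Btla above Tnfrsf18 by 0.34 ± 0.14, Tnfrsf18 above Tigit by 0.93 ± 0.34 and Ctla4 above Pdcd1 by 0.31 ± 0.11 (SD, n = 4; each exact sign-flip p = 0.13, and 0.1875 after Benjamini-Hochberg adjustment over the 9 pairs). None of the 9 pairs passed 0.05, which 4 libraries cannot reach.

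The other 5 neighbours differed by no more than their spread. Tnfrsf4 and Btla differed by 0.38 ± 0.53, with Tnfrsf4 higher in 3 of 4 libraries. Tigit and Ctla4 differed by 0.10 ± 0.42, with Tigit higher in 3 of 4. Pdcd1 was above Tnfrsf9 in 4 of 4, by 0.52 ± 0.57, and Tnfrsf9 above Icos in 4 of 4, by 0.66 ± 0.75. Icos and Cd28 differed by 0.24 ± 0.39, with Icos higher in 3 of 4.

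As a description with no test, the mean log2(TPM + 1) of the 5 costimulatory receptors was 2.43 ± 0.309 and that of the 4 inhibitory receptors 2.97 ± 0.339 (SD, n = 4). The costimulatory minus inhibitory difference was -0.67, -0.79, -0.62 and -0.08 in replicates 1 to 4, with a mean of -0.54 ± 0.316. It was negative in 4 of 4 libraries and near 0 in replicate 4, where Tnfrsf4 was at its highest and Tigit at its lowest.

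Replicate 3 was the lowest library for most receptors. In TPM it was lowest for 7 of 9, all except Tnfrsf9 and Tigit, and it was highest for none of them, while Gm16008 was highest there. Among all rows without an exon on the other strand that reached 1 TPM in every library, 53.0% of 2978 were also lowest in replicate 3, and their median level there was 74.8% of the mean of the other libraries. Detected rows with an exon on the other strand had a median of 100.5%. The share of counts in rows without an exon on the other strand was itself lowest in replicate 3, at 5.48%.

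When each count was scaled to the total of the rows without an exon on the other strand instead, replicate 3 was lowest for 5 of the 9 receptors: Tnfrsf4, Icos, Cd28, Ctla4 and Pdcd1. On that scale replicate 3 stood at 13.9% of the mean of the others for Icos, 51.4% for Cd28, 65.0% for Ctla4, 65.2% for Tnfrsf4 and 77.0% for Pdcd1. Btla and Tnfrsf18 stood at 88.8% and 98.7%, and Tigit and Tnfrsf9 at 119% and 136%. The coefficient of variation of Tnfrsf18 was 15.7% in TPM and 6.41% on this scale, and that of Btla 20.4% and 14.1%. For Gm16008 it went the other way, from 4.58% in TPM to 19.0%. The part of library composition in these differences was not tested.

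**Figure D4:**
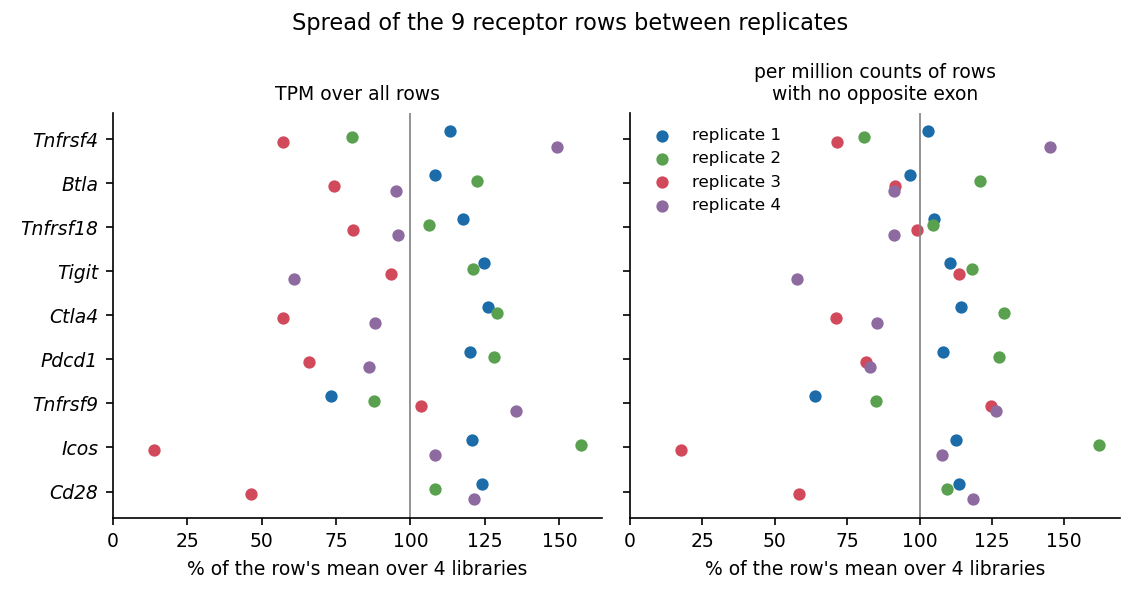
Level of each receptor row in each library as a percentage of its mean over the 4 libraries, in TPM and as counts scaled to the total of rows without an exon on the other strand. Replicate 3 is the lowest point for 7 of 9 receptors in the TPM panel and for 5 of 9 in the other.

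Whether a row varied between replicates by more than rows of like abundance was tested in edgeR, by goodness of fit of a negative binomial model with a common mean. Of 5064 rows tested, 23 passed an adjusted p of 0.05, which is 0.454%, and 260 had an unadjusted p under 0.05. Without replicate 4 the count was 7, without replicate 3 it was 12, and the other omissions gave 20 and 16. The filter on low counts kept 5 of the 10 rows: Tnfrsf4, Tnfrsf18, Gm16008, Ctla4 and Btla. Of these 5, edgeR called 0 at an adjusted p of 0.05, and 1 had an unadjusted p under 0.05. That row was Tnfrsf4 (edgeR adjusted p = 0.761, and from 0.172 to 1.0 over the alternatives). Tnfrsf9, Icos, Cd28, Pdcd1 and Tigit did not pass the filter. With the filter removed 15 of 17327 rows were called, none of the 10 among them, and Icos had an edgeR adjusted p of 0.808. Among rows without an exon on the other strand taken alone, 3 of 1793 (0.167%) were called. None of the members tested there, Tnfrsf4, Ctla4 and Btla, was among them. With DESeq2 size factors in place of TMM, 23 rows were called, and again none of the 5 members that passed the filter. In simulated data the test called 40% of rows changed 2-fold in 1 library, so differences of that size can go unseen. The rows changed there had higher mean counts than most receptors. All rows were simulated at the common dispersion (variation beyond counting error), 0.0118. In the main fit Tnfrsf4, Tnfrsf18, Ctla4 and Btla had dispersions of 0.0205 to 0.0311. The share called for rows like the receptors was not simulated.

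Of 12 ligand rows, 2 reached 1 TPM in every library, a share near the 21.8% of all protein-coding rows and the 14.7% of those without an exon on the other strand. Their median was 0.257 TPM, against 0.115 over all protein-coding rows. Tnfsf9, the ligand of 4-1BB, had 11, 24, 22 and 11 counts (9.94 ± 3.63 TPM), and Cd274, which encodes the PD-1 ligand PD-L1, had 18, 24, 15 and 23 (4.10 ± 1.29 TPM; SD, n = 4). Pdcd1lg2, the other PD-1 ligand, had 7, 6, 1 and 7. Tnfsf18, Icosl, Cd86 and Nectin3 had no count in any of the 4 libraries, each of which could hold up to 3 counts unseen. Nectin2 had 1, 1, 1 and 0 counts, and Gm20512, an antisense row that shares 135 bp with it, had 2610, 2303, 2596 and 1670.

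Over 6 lists of related genes, 33 of 88 rows reached 1 TPM in every library (37.5%), against 21.8% of all protein-coding rows. Among the 78 list rows without an exon on the other strand 26 did, or 33.3%, against 14.7% of such protein-coding rows. The detected counts of each list below are to be read beside these shares. No list was tested against another.

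Of 15 other rows listed with the costimulatory receptors, not all of which encode such receptors, 8 were detected. Their list had a median of 1.30 TPM and no exon shared with the other strand. Cd6, an adhesion receptor of T cells, stood at 30.0 ± 4.65 TPM, Cd40lg, which activates B cells and dendritic cells through CD40, at 17.6 ± 7.36, and Cd5, a modulator of antigen receptor signalling, at 14.7 ± 1.76 (SD, n = 4). Cd6 was thus above Tnfrsf4, the highest of the 9 receptors, by mean TPM.

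Of 11 other inhibitory receptors 2 were detected, Pilra and Vsir, a share near the 21.8% of all protein-coding rows. Their list had a median of 0.165 TPM. Vsir, which encodes VISTA, had 19, 27, 15 and 19 counts (2.92 ± 0.799 TPM). Pilra had 134, 131, 119 and 78 (26.8 ± 3.29 TPM) and shares 468 bp with Zcwpw1 on the other strand, which had 1, 0, 4 and 3. Lag3, which binds MHC class II, had 11, 11, 2 and 2 counts and averaged 2.15 ± 1.63 TPM, with replicates 1 and 2 above the others as for Ctla4 and Pdcd1. Cd160 had 3, 5, 5 and 3, and Pdzk1 opposite it 532, 539, 563 and 408.

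Below the TNF receptors, 6 of 18 TRAF and NF-kB rows were detected, with a median of 1.07 TPM. Ikbkg, the regulatory subunit of the IkB kinase, was highest at 59.5 ± 1.32 TPM and shares 418 bp with G6pdx on the other strand. Nfkb2, a subunit of the non-canonical pathway, stood at 18.2 ± 1.59, and Nfkbia, the inhibitor induced by NF-kB, at 16.2 ± 2.76 (SD, n = 4). Psd, which shares 4 bp with Nfkb2, had 2025, 1779, 1838 and 1388 counts. Traf5, an adaptor of OX40 and GITR, had 5, 4, 1 and 1 counts, whereas Gm26879 opposite it had 208, 236, 211 and 132.

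Of 23 rows listed for CD28 family signalling 12 were detected, with a median of 1.65 TPM. The list includes Pdk1, which was not detected and in mouse names a pyruvate dehydrogenase kinase rather than a kinase of this pathway. Lcp2, the adaptor SLP-76, stood at 21.8 ± 3.80 TPM, Ptpn6, the phosphatase SHP-1 that inhibitory receptors can recruit, at 13.3 ± 2.80, and the kinase gene Lck at 9.93 ± 3.23 (SD, n = 4). Ptpn6 had 65, 55, 38 and 47 counts, while Gm20531 opposite it had 3654, 3553, 3929 and 2775. Lcp2 shares 88 bp with 4930469K13Rik, which had 294, 276, 276 and 172 counts. As for Tnfrsf18, the antisense row of Ptpn6 was higher in every library.

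Of 9 rows for the trafficking of CTLA-4 and the turnover of receptor RNA 3 were detected, with a median of 1.37 TPM. Trat1, which encodes a transmembrane adaptor that helps CTLA-4 reach the surface, had 8, 9, 3 and 9 counts (7.91 ± 3.67 TPM). Ap2m1, a subunit of the clathrin adaptor that internalises CTLA-4, stood at 3.74 ± 1.12 TPM, and Rab11a averaged 1.69 ± 0.734 without reaching 1 TPM in every library. Lrba, which protects CTLA-4 from degradation, stood at 1.31 ± 0.233 (SD, n = 4). Its row shares 1097 bp with Mab21l2, which had 10, 5, 9 and 6 counts. Over all 6 lists 10 rows had an exon on the other strand, and in 7 of them the opposite row was higher in TPM in every library. In 2 the list row was higher in every library. The 85.6% given for pairs of a protein-coding row and another row is not a like share. Several of these opposite rows, such as Pdzk1, Psd and Mab21l2, are protein-coding. Whether 7 of 10 departs from all such pairs was not tested.

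**Figure D5:**
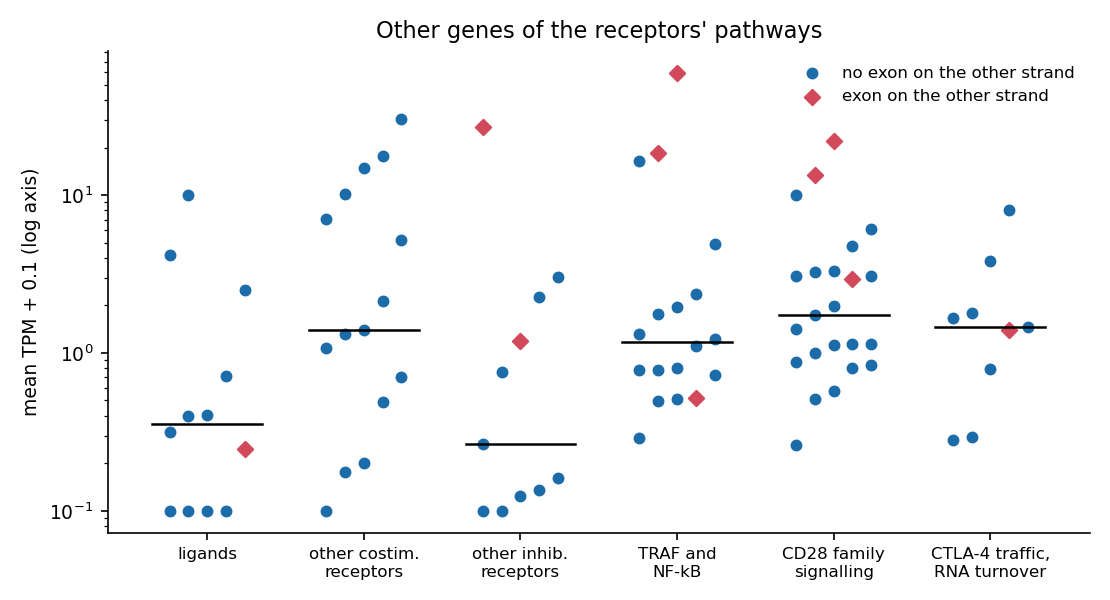
Mean TPM + 0.1 over the 4 libraries on a log axis for each of the 88 pathway rows, by list, with diamonds for the 10 rows that share exon bases with the other strand. The highest point is Ikbkg at 59.5 TPM, and 4 ligand rows lie at 0 TPM.

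Markers were set beside the cell type label as a description. They were chosen after their values were seen, so their detection is no test of the label. Of all protein-coding rows 21.8% reached 1 TPM in every library, and of those without an exon on the other strand 14.7%. Of 7 T cell markers 6 reached 1 TPM in every library, all except Cd3e, which had 18, 20, 6 and 9 counts. The antisense row Gm48719 opposite Cd3e had 2351, 2067, 2361 and 1692. Of 7 Th2 markers 6 did, all except Il5, which had 0 counts. The antisense row Gm12214 opposite Il5 had 72, 95, 48 and 46. Of 4 Th2 markers with an exon on the other strand, the opposite row was higher in every library in 3, including Gata3. The marker was higher in 1. Of 2 such T cell markers, the opposite row was higher in 1 and the marker in 1. Which strand's transcripts gave these counts was not tested. Tnfrsf18, Tnfrsf4, Ctla4, Icos and Tigit are also known from regulatory T cells, of whose 7 markers 4 were detected. The regulatory markers summed to 149.8 to 159 TPM per library, mostly from Foxp3 (667, 606, 682 and 490 counts), whose row has 590 bp in common with Ccdc22 on the opposite strand. Ccdc22 had 0, 1, 6 and 0 counts, and Gm36995 also shares exon bases with Foxp3 on that strand. Which strand's transcripts gave the Foxp3 counts was not tested. The other detected markers share no exon with the other strand: Nrp1 stood at 18.9 ± 1.19 TPM and Il2ra at 17.4 ± 3.35 (SD, n = 4), and Izumo1r had 26, 26, 13 and 17 counts. Ikzf2 had 1, 1, 0 and 0 counts, Ikzf4 had 0, 1, 1 and 1 and Lrrc32 had 1, 1, 1 and 3. Btla and Pdcd1 are also known from follicular helper T cells, of whose 4 markers 1, Il21, was detected, with summed levels of 5.15 to 8.66 TPM. That share is near the one of all protein-coding rows. Bcl6 had 2, 2, 0 and 0 counts.

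Markers of other cells that carry these receptors were detected in part. No marker of 3 for Th1 cells or of 5 for CD8 and NK cells was detected, with sums of 0.776 to 1.46 and 1.07 to 2.00 TPM, and Ncr1 and Klrb1c were at 0. Of 5 B cell markers Cd79a alone was detected, at 4.09 ± 1.84 TPM (SD, n = 4), near the level of Pdcd1. This share is near the 21.8% of all protein-coding rows. The B cell sum was 1.87 to 6.35 TPM, and Cd79b, Ms4a1 and Pax5 were at 0. Of 7 antigen-presenting and myeloid markers Csf1r, H2-Ab1 and Cd68 were detected, and Itgam, Itgax and Adgre1 were at 0. Their sum of 195 to 209.6 TPM came mostly from Csf1r (1409, 1363, 1457 and 1066 counts), whose row shares 871 bp with Hmgxb3. Hmgxb3, on the other strand, had 16, 9, 4 and 9 counts. H2-Ab1, with no exon on the other strand, stood at 4.54 ± 1.33 TPM (SD, n = 4). The part of other cells in the levels of the 9 receptors was not tested.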

How the data were processed

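Whole read-pair counts per gene were deposited, not normalized. Per the file headers, the authors counted with featureCounts 1.4.6-p4, strand setting 1, both ends mapped, exons summed by gene, GENCODE vM13 annotation. The labels name mm10, and the aligner version is not given in the sources used here. Exon length (bp) was also deposited. TPM was computed from count and length. Names, types and sequences came from GENCODE vM21, in which 224 of 50600 rows had no match.

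Members and gene lists were chosen with earlier results of these data known. Named genes were all members, exon-sharing rows on the other strand, neighbours within 10 kb above 3 counts in every library, the 3 highest rows of each list, list rows whose opposite row exceeded 3 counts in every library, and the 3 rows most like Gm16008. Marker genes, and genes named because they were at or near 0 or fell outside these rules, were chosen after their values were seen.

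Differences within libraries used exact two-sided sign-flip tests (smallest p 0.125). Rows that differ among replicates were sought with edgeR 4.0.16 under R 4.3.3 with limma 3.58.1 (TMM, filterByExpr, trended dispersion, Benjamini-Hochberg at 0.05), a procedure first tested on simulated data. There it called 40% of 200 rows changed 2-fold in 1 library and 97.5% of 200 changed 4-fold. The changed rows had higher mean counts than most receptors, and all rows were simulated at the common dispersion. DESeq2 1.42.0 gave alternative size factors. Overlaps came from bedtools 2.31.1, figures from Matplotlib 3.10.9, and other values from SciPy 1.17.1, numpy 2.4.6 and pandas 2.3.3 in Python 3.11.15. Read pairs are not independent molecules, so the interval and the floors hold for counting error alone. Alternatives were a pseudocount of 0.1, detection at 0.5 TPM, other filters, scalings and dispersions, and leaving out each replicate. Added after seeing the data were rows without an exon on the other strand taken alone or as the scale, other scalings of the receptors lowest in replicate 3, and leaving out each replicate for the pathway rows. Some values are not reported here.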

Additional observations from a re-analysis of the deposited data

How the results depend on the processing

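No paired analysis was possible because the libraries form 1 group, so that replicate numbers pair no samples across groups. The number of rows that varied between replicates in edgeR, 23, was 32 with a common dispersion, 15 with no filter on low counts, 3 with rows without an exon on the other strand alone, and 7 to 20 when each replicate was left out. No member that was tested was called under any of these. All 10 rows were tested only with no filter on low counts. With rows without an exon on the other strand alone, only Tnfrsf4, Ctla4 and Btla were tested. The other settings tested only the 5 rows that passed the filter. The share of opposite-strand pairs whose other row was higher, 85.6%, was 90.7% with pairs of at least 100 counts and 79.95% by counts. The costimulatory minus inhibitory difference, -0.54, was -0.88 as a median over members and -0.70 to -0.46 when each replicate was left out. Without single replicates, the Gm16008 over Tnfrsf18 log2 ratio ranged from 7.87 to 8.07. Of 70 alternative values for the members' mean levels 18 moved by more than 1 SD, nearly all through a change of unit, and no result reversed. At these depths, 6 of the 9 receptors had 11 counts or fewer in some library, which limits what their spread can show.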

Other observations

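Around the members, few neighbouring rows within 10 kb exceeded 3 counts in every library. Sdf4, which ends 233 bp before Tnfrsf4 on the same strand, had 61, 49, 30 and 31 counts. Gm37090, a row of unsettled annotation that shares 305 bp with Gm16008 on the same strand, had 70, 69, 69 and 52. Park7, which starts 125 bp from Tnfrsf9 on the other strand, had 20, 11, 10 and 23. Gm11579, a long intergenic RNA row 3306 bp past the end of Cd28 on the other strand, had 16, 15, 11 and 7 counts and 10.3 ± 2.62 TPM (SD, n = 4), whereas Cd28 itself averaged 0.957 ± 0.348 TPM. No row near Icos, Ctla4, Pdcd1, Tigit or Btla exceeded 3 counts in every library.

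The rows whose levels were most like those of Gm16008 over the 4 libraries each share exon bases with a gene on the other strand. Rows of that kind held 92.5% to 94.5% of all counts per library, so this is common among rows with many counts. By the root mean square difference of log2(CPM + 1), they were 9130221H12Rik opposite Gsk3a (0.0262), Pip4p1 opposite Apex1 (0.0636) and 2610020C07Rik opposite Gspt1 (0.0798). This is a likeness of level over 4 libraries of 1 group.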
